A study of Mus musculus with 8 samples.

Results

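The genes described here encode 8 growth factors and related cytokines that macrophages can release: Pdgfa, Pdgfb, Hbegf, Igf1, Hgf, Tgfb1, Osm and Lif. They were found by gene number, since each probe set carries the Entrez number of its gene, and all 8 were among the 24011 genes with a value. The cells were wild-type mouse macrophages grown from the bone marrow of animals aged 8 to 10 weeks, for 7 days in medium with 30% L cell-conditioned medium, the source of M-CSF that drives macrophage formation. One group of 4 samples had received hepcidin at 10 µg/ml for 1 h before lysis, and the other group of 4 had received PBS. Hepcidin is a liver hormone of iron balance, and its receptor is ferroportin, the channel through which cells release iron. Total RNA was measured on Affymetrix whole-transcript arrays, and values are log2 RMA values, so a difference of 1 is a doubling. Sample titles carry a number from 1 to 4 in both groups and do not say whether it is an animal, a culture or a day, so any spread given here is that between these samples and may be technical.

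Macrophages supply growth factors that act on fibroblasts, epithelium and vessel walls, which is part of their role in tissue repair. The platelet-derived growth factor chains, HB-EGF, IGF-1 and HGF signal through receptor tyrosine kinases. TGF-β1 signals through a serine/threonine kinase receptor pair and SMAD proteins, while oncostatin M and LIF belong to the interleukin-6 family and share the receptor chain gp130. Several of these ligands are made as precursors, so mRNA is only the first step: HB-EGF is cut from the cell surface by ADAM17, HGF is activated by a protease, and TGF-β1 stays latent until it is released from its propeptide.

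The 8 genes were chosen by name while their levels and their hepcidin and PBS differences on these arrays were already known, so those values are a description and carry no test. The RNA comes from whole cultures, in which fewer cells of a type and less RNA per cell cannot be told apart. All 11 measured macrophage markers had a mean of at least 6, and the highest was Cd68 at 13.1. None of the 10 fibroblast markers did, with Col1a1 highest at 5.74. Of the markers of neutrophils and their precursors 4 of 12 did, with Ngp highest at 7.06. Of the megakaryocyte and platelet markers 1 of 6 did, Pf4 at 8.41, and of the mast cell and basophil markers 1 of 8, Kit at 6.36. As a measure of background, 24 markers of lymphocytes and endothelium had a median of 3.87 and a 90th percentile of 5.49. Among them were 2 endothelial genes with clear signal, Kdr at 7.51 and Vwf at 7.20, without which the 90th percentile was 4.96. Lif lay under both percentiles, and the other 7 growth factor genes lay above both. A mean under 5.49 is called the background range in what follows. Arrays with the same number resembled each other, and both arrays numbered 1 stood apart from the rest, so the values of the 8 genes are given pair by pair and also without number 1.

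Pdgfb encodes the B chain of platelet-derived growth factor, a mitogen of fibroblasts and pericytes, and had the highest log2 change of the 8 genes. It stood at 7.82, 8.27, 8.07 and 8.996 on the hepcidin arrays numbered 1 to 4, against 7.52, 7.90, 7.53 and 8.73 on the PBS arrays. Hepcidin was the higher of each pair, by 0.30, 0.38, 0.54 and 0.26 on the log2 scale, or 1.23-fold, 1.30-fold, 1.45-fold and 1.20-fold. The groups nevertheless overlapped, because the PBS array numbered 4 was higher than the hepcidin arrays numbered 1 to 3. The group means were 8.29 ± 0.51 with hepcidin and 7.92 ± 0.57 with PBS (SD, n = 4 each). The fitted log2 change was 0.37 ± 0.30 (SE) with a 95% interval from -0.31 to 1.04. With the number as a block, a term that takes up the differences between numbers, the SE of the same change was 0.08. Without both arrays numbered 1 the mean pair difference was 0.39. Leaving out 1 array of number 4 moved the change most, to 0.13 where the hepcidin array was dropped and to 0.64 where the PBS array was, and in both fits the other array of that number had no partner.

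Pdgfa encodes the A chain, which pairs with itself or with the B chain. It stood at 8.87, 9.25, 8.59 and 9.13 on hepcidin arrays 1 to 4, against 8.61, 9.15, 8.54 and 9.18 on the PBS arrays. The pair differences were 0.26, 0.10, 0.05 and -0.05, so hepcidin was the higher in 3 of 4 pairs and the groups overlapped almost wholly. The fitted change was 0.09 ± 0.19 (SE), with a 95% interval from -0.33 to 0.51, and the mean pair difference without number 1 was 0.03. With the number as a block the SE of the fitted change was 0.08. The 2 chains thus had different signs in pair 4 and the same sign in the other pairs.

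Hbegf encodes heparin-binding EGF-like growth factor, a membrane-anchored ligand of the EGF receptor. It stood at 6.27, 6.27, 6.47 and 6.40 with hepcidin, against 5.81, 6.25, 6.29 and 6.24 with PBS. Hepcidin was the higher in 4 of 4 pairs, by 0.46, 0.02, 0.18 and 0.16. The groups overlapped only through the PBS array numbered 3, at 6.29, which exceeded the hepcidin arrays numbered 1 and 2. The fitted change was 0.21 ± 0.12 (SE), with a 95% interval from -0.05 to 0.46. The PBS array numbered 1 was the lowest of the 8. Without that array the change was 0.09, and without both arrays numbered 1 the mean pair difference was 0.12.

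Igf1, the gene of insulin-like growth factor 1, a survival and growth signal for many cell types, showed the smallest difference of the 8. It stood at 11.75, 11.77, 11.65 and 11.81 with hepcidin, against 11.83, 11.78, 11.61 and 11.76 with PBS. The pair differences ran from -0.08 to 0.04, 2 of them above 0. The group means were 11.74 ± 0.06 with hepcidin and 11.74 ± 0.09 with PBS (SD, n = 4 each), and the 95% interval of the difference ran from -0.18 to 0.18. Changes of 0.18 or less on the log2 scale in either direction therefore lay within the error. The mean pair difference without number 1 was 0.025.

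Tgfb1 encodes TGF-β1, a growth inhibitor of many cells and an inducer of matrix genes. It stood at 10.84, 10.83, 10.97 and 10.75 with hepcidin, against 10.84, 10.69, 10.77 and 10.80 with PBS. Its pair differences were 0.00, 0.14, 0.20 and -0.05, and the groups overlapped. The fitted change was 0.07 ± 0.08 (SE), with a 95% interval from -0.10 to 0.25, and the mean pair difference without number 1 was 0.10.

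Hgf encodes hepatocyte growth factor, the ligand of the receptor MET. It stood at 7.40, 7.54, 7.04 and 6.57 with hepcidin, against 7.49, 7.78, 7.01 and 6.79 with PBS. Hepcidin was the lower in 3 of 4 pairs, with differences of -0.09, -0.24, 0.04 and -0.22. The group means were 7.14 ± 0.43 with hepcidin and 7.27 ± 0.45 with PBS (SD, n = 4 each). The fitted change of -0.13 ± 0.25 (SE) had a 95% interval from -0.69 to 0.43. With the number as a block the SE of the same change was 0.08. The change was 0.06 where hepcidin array 4 was dropped and 0.04 where PBS array 2 was. In both fits the other array of that number had no partner. With the block, the change was -0.10 without both arrays numbered 4 and -0.09 without both numbered 2. The mean pair difference without number 1 was -0.14.

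Osm encodes oncostatin M, a cytokine of activated macrophages that acts on liver, stromal and endothelial cells. It stood at 7.11, 6.12, 5.9975 and 6.52 with hepcidin, against 6.79, 6.41, 5.93 and 6.26 with PBS. The pairs went in both directions, with 0.32, -0.29, 0.07 and 0.26. The fitted change was 0.09 ± 0.25 (SE), and with the number as a block its SE was 0.11. The change was -0.14 without the hepcidin array numbered 1, the highest of the 8, a fit that left the PBS array of that number without a partner. Without both arrays numbered 1 the mean pair difference was 0.01.

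Lif, the gene of leukaemia inhibitory factor, lies next to Osm in the mouse genome, with 0 annotated genes between them. It stood at 4.34, 4.42, 4.35 and 4.32 with hepcidin, against 4.67, 4.15, 4.38 and 4.38 with PBS. All 8 values lay under the 90th percentile of the background markers. The change was -0.04 ± 0.11 (SE), and without number 1 the mean pair difference had the other sign, at 0.06. The signs of the pair differences of Lif and Osm were opposite in all 4 pairs: -0.33, 0.26, -0.03 and -0.06 for Lif.

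**Figure D1:**
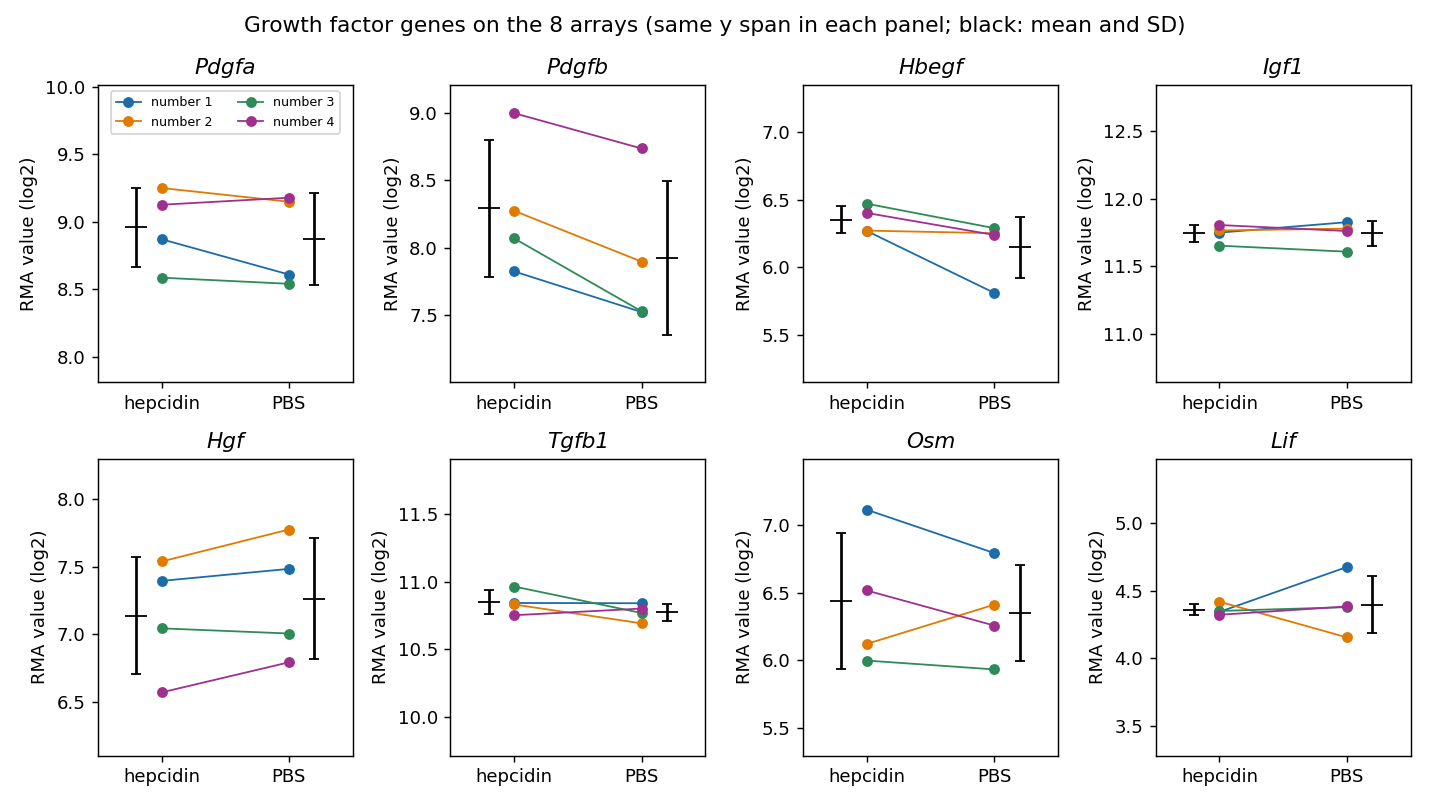
RMA value (log2, y axis) of each growth factor gene on the 4 hepcidin and 4 PBS arrays, 1 panel a gene, with lines joining arrays of the same number and black marks for the mean and SD (n = 4). The lines of Pdgfb run parallel at different heights, number 1 at 7.82 with hepcidin and 7.52 with PBS and number 4 at 8.996 with hepcidin and 8.73 with PBS, while those of Igf1 and Tgfb1 lie close together.

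Over the 8 genes, 5 had a log2 change above 0, as did 50.4% of all genes, and the median change was 0.08, against 0.00 over all genes. In limma, 0 of the 8 passed an adjusted p of 0.05, as 0% of all genes did, and 0 had an unadjusted p under 0.05, against 2.86% of all genes. With the number as a block, 0 of the 8 passed the adjusted threshold, against 0.00416% of all genes. Pdgfb alone was under an unadjusted 0.05 in that fit, against 4.91% of all genes. Hepcidin was the higher in 4 of 4 pairs for 2 genes, Pdgfb and Hbegf, and 5.69% of all genes shared that. The groups overlapped for each of the 8, and they did not for 1.88% of all genes. Because the genes were proposed with this comparison in view, nothing is read from these counts. Among the 9274 genes with a mean of at least 6, the absolute change of Pdgfb exceeded that of 99.5% and that of Hbegf 96.9%. For Hgf, Pdgfa, Osm and Tgfb1 the shares were 88.9%, 75.5%, 75.3% and 66.7%, and for Lif and Igf1 42% and 0.5%. These ranks describe the same comparison and leave the SE out, so nothing is read from them either.

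**Figure D2:**
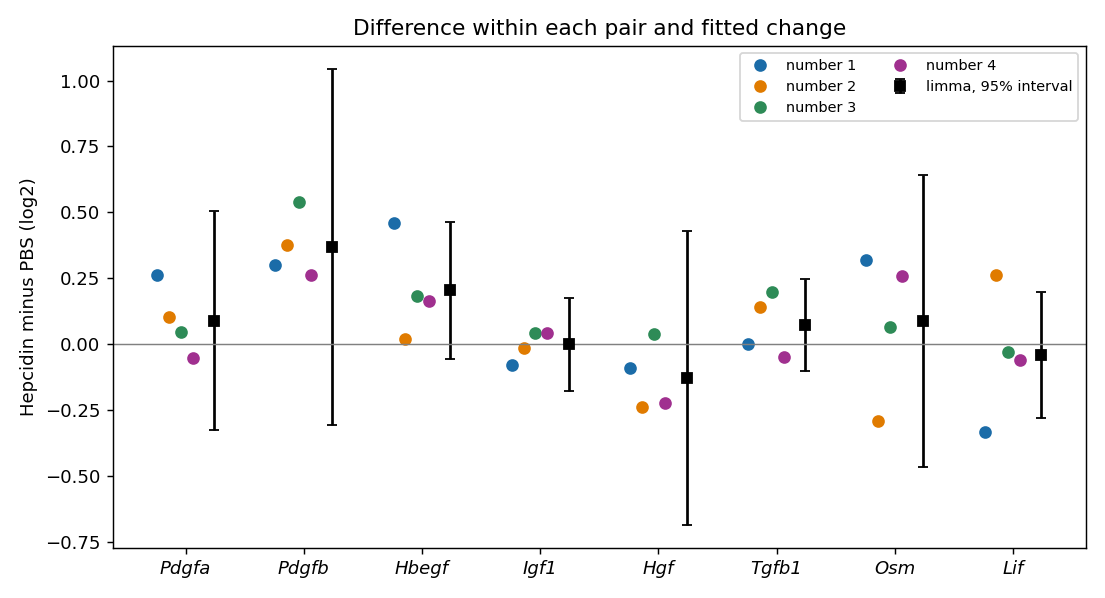
Hepcidin minus PBS (log2, y axis) for each growth factor gene, with coloured points for the 4 pairs of arrays of the same number and a black square for limma's fitted change with its 95% interval (no block). All 4 points lie above 0 for Pdgfb and Hbegf, and each of the 8 intervals includes 0. These intervals hold the spread between numbers as well. With the number as a block the SE of Pdgfb was 0.08 instead of 0.30 and that of Pdgfa 0.08 instead of 0.19. In that fit the SE of Hgf was 0.08 and that of Osm 0.11, instead of 0.25 for each.

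The choice of the genes did not use the differences between replicate numbers. Their levels on these arrays were already known, however, and the test between numbers was added after the values had been seen. For all 8 the range of the 4 number means exceeded the mean absolute pair difference, as it did for 78.5% of all genes. A range over 4 means is a wider measure than a mean of single differences, so nothing is read from that count. For Pdgfb, the mean of the hepcidin and PBS array of a number was 7.67, 8.08, 7.80 and 8.87 for numbers 1 to 4, a range of 1.19 on the log2 scale, against a mean absolute pair difference of 0.37. Hgf ran the other way at number 4, with number means of 7.44, 7.66, 7.03 and 6.68 and a range of 0.98, against 0.15 within pairs. Osm was highest on number 1, with 6.95, 6.27, 5.96 and 6.39 and a range of 0.99, against 0.23 within pairs. Pdgfa was high on numbers 2 and 4 and low on numbers 1 and 3, with 8.74, 9.20, 8.56 and 9.15.

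These 4 genes differed between numbers in limma's moderated F test over all genes, with treatment in the model. The adjusted p was 0.00394 for Pdgfb, 0.00835 for Hgf, 0.0302 for Pdgfa and 0.0358 for Osm. Each number holds 1 array of each treatment, and 5.60% of all genes passed. Each of these 4 genes had a mean of at least 6, and 11.9% of the genes with such a mean passed at the same adjustment. The share depended on how the genes were filtered. With the test run only on genes with a mean of at least 6, 31.2% passed, and the same 4 of 7 growth factor genes did. It also depended on the numbers included. Without number 1, Pdgfb and Hgf passed, against 0.691% of all genes. Without number 3 the same pair passed, against 4.24%. Without number 2, Pdgfb, Hgf and Osm passed, against 4.10%. Without number 4 Osm was the only one, against 3.41%. Pdgfa passed in none of these fits. Each of them also had fewer arrays, so a lost call cannot be tied to the number left out.

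Hbegf, Igf1, Tgfb1 and Lif did not pass, with adjusted p-values of 0.361, 0.636, 0.860 and 0.728 in limma and ranges of 0.34, 0.16, 0.11 and 0.22. The Tgfb1 range was larger than that of only 6.3% of the genes with a mean of at least 6, and the Pdgfb range larger than that of 98%. Markers of neutrophils and their precursors moved between numbers too. Of 12, 8 passed the same limma test, and the list averaged 4.31 with hepcidin and 4.46 with PBS on number 1, against 5.18 to 5.64 with hepcidin and 5.22 to 5.68 with PBS on the other numbers. Of the 11 macrophage markers 3 passed, and the average of that list was lowest on number 1 as well, at 11.11 with hepcidin and 11.04 with PBS. Fcgr1 had the widest range of that list, 2.33, with a number mean of 9.01 on number 1. Csf1r, Itgam, Mertk and Cd14 were also lowest on number 1, while Adgre1, Cd68, Mrc1, Msr1, Spi1 and Tyrobp were not. The part of either list in the differences of the growth factor genes was not tested. Of the 10 fibroblast markers 0 passed.

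**Figure D3:**
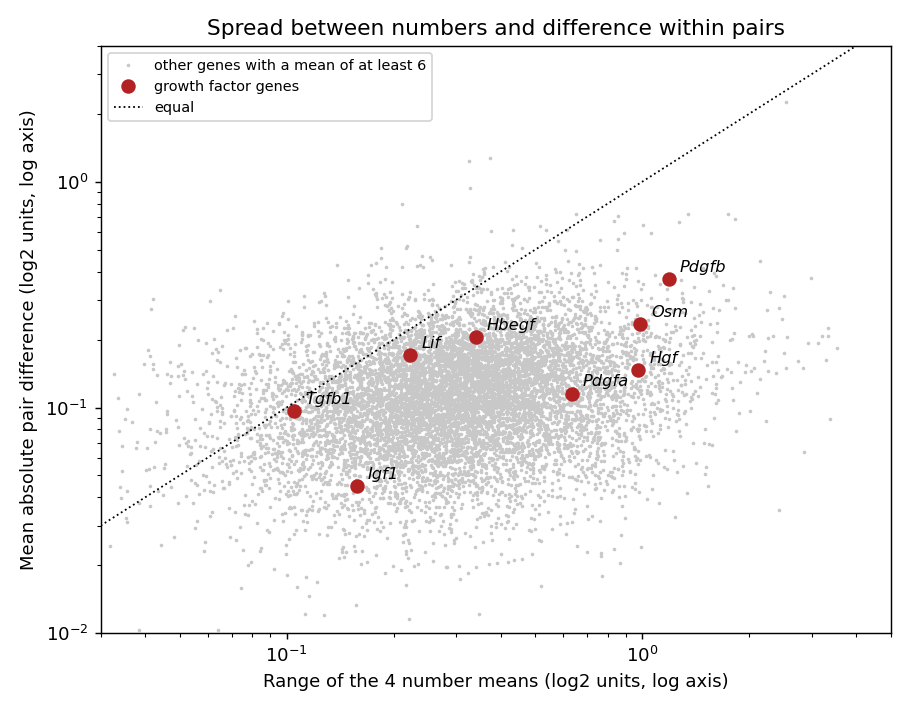
Range of the 4 number means (x axis) against the mean absolute pair difference (y axis), both in log2 units on log axes, for the 8 growth factor genes (red) and the other genes with a mean of at least 6 (grey); the dotted line marks equal values. All 8 growth factor genes lie below the line, and Pdgfb, Osm and Hgf lie far to the right with ranges of 1.19, 0.99 and 0.98. Of all genes 78.5% had the larger range, a share that also counts genes with a mean under 6, which are not drawn in grey.

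The receptors of these ligands and the proteins that process them were described from lists of related genes, 121 with a value in 7 lists. The SE of each listed gene comes from the fit without a block, so it holds the spread between numbers as well. In limma 0 of the 121 passed in either direction, as 0% of all genes did, and 0 passed with the number as a block. At an unadjusted p under 0.05, 4 were higher and 2 lower with hepcidin, against 1.33% and 1.53% of all genes. Of the 121, 72 or 59.5% were above 0, against 50.4% of all genes, and their median log2 change was 0.02. Hepcidin was the higher in 4 of 4 pairs for 13 of them, or 10.7%, against 5.69% of all genes, and the lower in 5, against 5.92% of all genes. The lists were written with earlier results of these data known. Nothing is therefore read from these counts and shares, or from those of the single lists below.

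In the platelet-derived growth factor list, the receptor genes Pdgfra and Pdgfrb lay in the background range. Pdgfra averaged 4.32 ± 0.32 on hepcidin and 4.17 ± 0.38 on PBS arrays, and Pdgfrb 4.36 ± 0.13 on hepcidin and 4.40 ± 0.10 on PBS arrays (SD, n = 4 each). Of the 6 genes 2 were above 0. Sparc, a matrix protein that binds PDGF, had the highest change at 0.44 ± 0.28 (SE), in the background range with a mean of 5.11. The hepcidin array numbered 3 stood at 6.25, against 4.88 to 5.09 on the other hepcidin arrays, and without it the change was 0.13. The ligand gene Pdgfc had the lowest, at -0.07 ± 0.10.

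In the EGF list, the receptor gene Egfr averaged 4.61 ± 0.08 on hepcidin and 4.54 ± 0.31 on PBS arrays (SD, n = 4 each), again in the background range. Adam17, a sheddase of HB-EGF, averaged 10.69 ± 0.06 on hepcidin and 10.54 ± 0.10 on PBS arrays, and hepcidin was the higher in 4 of 4 pairs. Rhbdf2, which encodes the iRhom2 protein that brings ADAM17 to the surface of immune cells, had the highest change of the 21 genes, at 0.24 ± 0.10 (SE) and in 3 of 4 pairs, and a mean pair difference of 0.15 without number 1. Nrg4, the gene of a ligand of ERBB4, had the lowest, at -0.26 ± 0.11 and in 0 of 4 pairs, and Ereg, the epiregulin gene, changed by -0.05 ± 0.12. Of the 21, 11 were above 0.

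In the IGF list 12 of 18 genes were above 0, from -0.29 ± 0.16 (SE) for the binding protein gene Igfbp6 to 0.17 ± 0.09 for Stc1, the gene of an inhibitor of the protease PAPP-A. Both lay in the background range, with means of 5.37 and 3.27, and the change of Igfbp6 was -0.13 without the PBS array numbered 1. The receptor gene Igf1r changed by 0.02 ± 0.11. Igfbp4, which encodes a binding protein that holds IGF-1 back from its receptor, changed by 0.12 ± 0.32 and differed between numbers, with a range of 1.37. In the HGF list 5 of 10 were above 0, from -0.17 ± 0.13 (SE) for the protease inhibitor gene Spint2 to 0.12 ± 0.10 for the plasminogen activator gene Plat, both in the background range with means of 4.97 and 4.57. The change of Plat was 0.04 without the hepcidin array numbered 4. Met, the HGF receptor gene, averaged 5.74 ± 0.54 on hepcidin and 5.75 ± 0.31 on PBS arrays (SD, n = 4 each). Plau, the gene of urokinase, a protease able to activate HGF, changed by 0.04 ± 0.32 (SE) and had a range of 1.27 between numbers, lowest on number 1.

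In the TGF-β list 17 of 25 genes were above 0, and 7 of 25 were higher with hepcidin in 4 of 4 pairs, against 5.69% of all genes. Thbs1, Furin and Nrros were among the 7. Thbs1, whose product thrombospondin-1 can activate latent TGF-β, had the highest change, at 0.39 ± 0.20 (SE), with 6.18 ± 0.19 with hepcidin and 5.80 ± 0.45 with PBS (SD, n = 4 each). The change was 0.17 without the PBS array numbered 1, and the mean pair difference without number 1 was 0.26. Furin, the protease that cuts the TGF-β precursor, changed by 0.09 ± 0.10 and Nrros, which anchors latent TGF-β1 on myeloid cells, by 0.16 ± 0.20. The receptor genes Tgfbr1 and Tgfbr2 changed by 0.05 ± 0.17 and 0.10 ± 0.14, the latent binding protein gene Ltbp3 by 0.03 ± 0.17 and the feedback gene Smad7 by -0.04 ± 0.15. Tgfb3 had the lowest change, at -0.09 ± 0.19, in the background range with a mean of 4.70, and its change was 0.02 without the PBS array numbered 4.

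In the list of gp130 cytokines 11 of 18 genes were above 0. The shared receptor chain Il6st averaged 9.79 ± 0.13 on hepcidin and 9.82 ± 0.11 on PBS arrays (SD, n = 4 each). The oncostatin M receptor gene Osmr, at 4.11 ± 0.40 with hepcidin and 3.99 ± 0.30 with PBS, lay in the background range. Lifr changed by 0.05 ± 0.49 (SE), with number means of 4.77, 5.99, 6.85 and 5.97 for numbers 1 to 4. The highest change was that of Socs3, the feedback inhibitor of gp130 signalling, at 0.38 ± 0.12 and in 4 of 4 pairs, and the lowest that of Cntf, at -0.32 ± 0.13 and in 0 of 4 pairs. Both lay in the background range, with means of 5.46 and 5.28, though above 4.96, the 90th percentile without Kdr and Vwf. The groups of Socs3 did not overlap, at 5.58 to 5.71 with hepcidin and 4.90 to 5.45 with PBS. That held for 1.88% of all genes. The ligand genes Il6 and Il11 changed by 0.11 ± 0.08 and 0.05 ± 0.13 in the background range.

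Among 23 other growth factor genes 14 were above 0. Vegfa, the vascular growth factor gene, changed by -0.01 ± 0.22 (SE), Csf1, the gene of M-CSF, by 0.16 ± 0.23 and Fgf2 by 0.03 ± 0.09. The ends of the list were Bmp6 at -0.17 ± 0.09, in the background range with a mean of 3.61, and Tnfsf9, the 4-1BB ligand gene, at 0.43 ± 0.12. Vegfa and Csf1 differed between numbers, with ranges of 0.93 and 0.92 and adjusted p-values of 0.00847 and 0.0223 in limma. Over all 121 genes 14.9% differed between numbers, against 5.60% of all genes. Of the 14 genes at the ends of the 7 lists, 9 had a mean in the background range. Of these, Sparc, Igfbp6, Spint2, Cntf and Socs3 lay above 4.96, the 90th percentile without Kdr and Vwf.

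**Figure D4:**
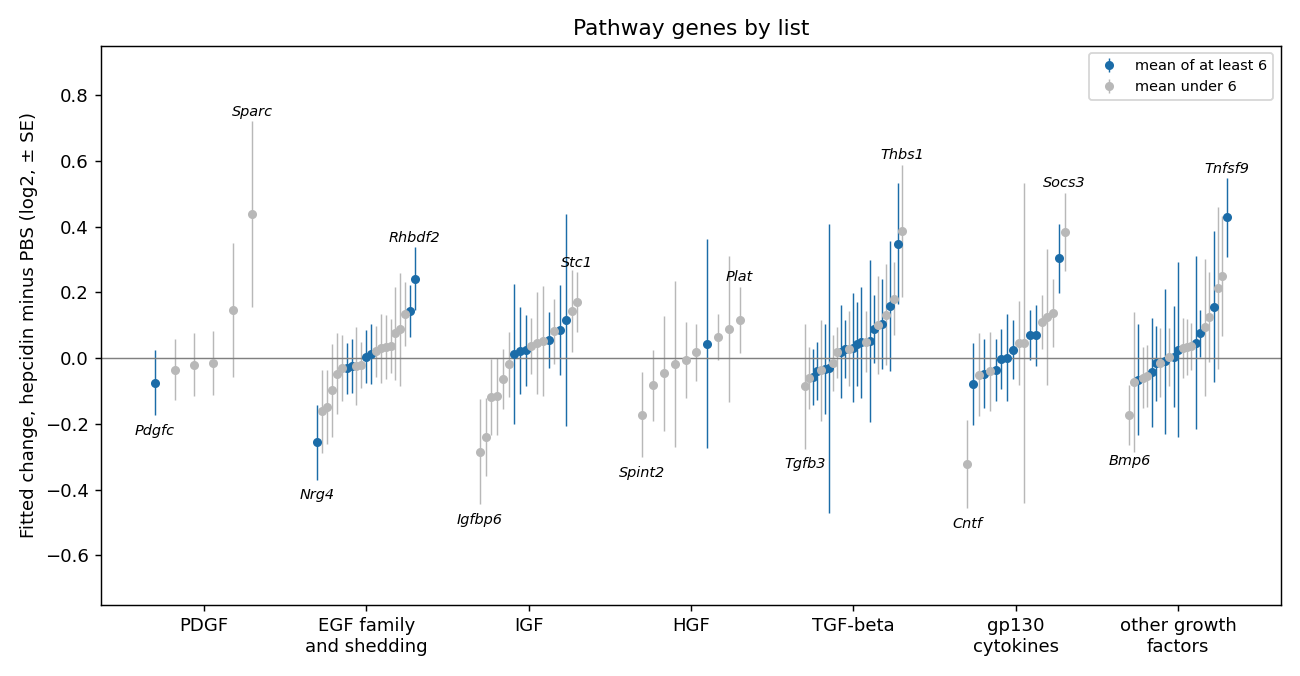
Fitted change, hepcidin minus PBS (log2, y axis, ± SE), of the genes of the 7 lists (x axis), ordered by change within a list, in blue for a mean of at least 6 and in grey below it; the lowest and highest gene of each list are named. Most genes lie near 0, and Tnfsf9 at 0.43, Sparc at 0.44, Thbs1 at 0.39 and Socs3 at 0.38 are the highest of their lists.

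The genes whose values followed each growth factor gene most closely over the 8 arrays were taken from 8771 protein-coding genes with a mean of at least 6, by the root mean square difference of mean-centred values. The 8 arrays are 4 pairs of equal number and not 8 independent points, so likeness can come from numbers or from treatments. For Pdgfb they were Chst11, a chondroitin sulfotransferase gene, at a difference of 0.18, the MAPK phosphatase gene Dusp5 at 0.19 and the chemokine gene Cxcl16 at 0.20. Nearest to Hgf were Psat1, a serine synthesis gene, the receptor gene P2ry14 and the protease gene Ctse, at 0.11, 0.12 and 0.12. Nearest to Osm were the claudin gene Cldn12 at 0.10, the tRNA exporter gene Xpot at 0.11 and the costimulatory gene Cd86 at 0.12. Nearest to Pdgfa were Uchl1, the TGF-β receptor gene Tgfbr1 and Zswim7, at 0.08, 0.10 and 0.10. The nearest genes of Hbegf were Ufc1, Umps and Dusp12, all at 0.06, and those of Lif were Onecut3, Fbrs and Urod, at 0.06 to 0.07. Igf1 and Tgfb1 spanned 0.22 and 0.27 over the 8 arrays, too little for such a match.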

How the data were processed

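The authors deposited log2 values that were background-corrected, normalized across arrays and summarised by probe set with RMA in affy 1.36.1 (per the submitters' processing notes). No source used here names the probe set definition or the genome build, so positions are left out. The table, with values of 1.73 to 13.6, was analysed without further scaling. Its 24973 probe sets included 24015 with 1 gene symbol in the platform annotation, each numbered as its Entrez gene, and 958 with none. Keeping the brightest probe set of 4 repeated symbols gave 24011 genes. Array medians were 4.87 to 4.95. On arrays, their number limits the precision.

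Changes are hepcidin minus PBS, from lmFit and eBayes in limma 3.58.1 (R 4.3.3), with Benjamini-Hochberg adjustment over the whole table and a threshold of 0.05. Unless a block is named, SEs and intervals come from the fit without one. The median SE of the 8 genes was 0.15 without the block and 0.08 with it. Over all genes it was 0.11 without the block and 0.09 with it. The growth factor genes, the lists of related genes and markers, the rule for named genes (all 8, a fixed set of receptors and processing genes, the ends of each list, the nearest profiles) and the alternatives were chosen with earlier results of these data known. The moderated F test between numbers, its alternatives and the checks on the ends of the lists were added after the values had been seen. To see whether equal numbers pair the arrays, deviations from the group mean were correlated across genes. Same-numbered arrays gave 0.344 to 0.548 and other pairs of arrays -0.356 to 0.124, so the numbers in the titles were taken as pairs. The fits were tested on simulated data. Other settings were median centring, quantile normalization, cyclic loess, a filter at a mean of 6, all probe sets, other variance models, array weights, the number as a fixed or random block, and leaving out arrays. Of 128 listed symbols 121 had a value, and the others were not analysed here. Plots were made in Python 3.11.15 with matplotlib 3.10.9.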

Additional observations from a re-analysis of the deposited data

Results flagged for a closer look

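Hbegf on the PBS array numbered 1 stood at 5.81, against 6.24 to 6.29 on the other 3 PBS arrays, a gap that is large against the range of that group. This was 1 flag in 16 sets of 4 arrays, where chance flags about 1 in 20. Hbegf on the hepcidin array of the same number was at 6.27, the lowest of the 4 hepcidin arrays, which ran to 6.47.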

How the results depend on the processing

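The changes of Pdgfb, Hbegf and Tgfb1 stayed above 0 in each of the 21 alternatives, at 0.13 to 0.64, 0.09 to 0.27 and 0.03 to 0.11. The filter at 6, all probe sets, the other variance models and both blocks on all 8 arrays leave a fitted change as it was. Those alternatives could not change a sign, so nothing is read from them here. The changes of Pdgfa (-0.02 to 0.21), Osm (-0.14 to 0.24), Hgf (-0.29 to 0.06), Igf1 (-0.05 to 0.03) and Lif (-0.14 to 0.06, in 20 alternatives) took both signs. For Pdgfa, Osm and Hgf this occurred only where 1 array was left out and its partner of equal number was kept. With a whole number left out and the block kept, these genes did not change sign. Their changes were then 0.03 to 0.14 for Pdgfa, 0.01 to 0.22 for Osm and -0.18 to -0.09 for Hgf. Igf1 and Lif took both signs there too. No growth factor gene passed an adjusted p of 0.05 in limma in any of the 21 alternatives. The number of the 8 above 0 ran from 3 to 7 without single arrays or numbers, and their median change from -0.03 to 0.10. The groups of 1 gene, Hbegf, did not overlap after median centring, and 0 to 1 genes did so without single arrays. Over all genes limma called 0, and 686 had an unadjusted p under 0.05. With the replicate block 1 passed (1179 unadjusted), with a random block 5 (1193), among genes with a mean of at least 6 it was 3 (97), and without single arrays or numbers 0 to 2. Among the 8 growth factor genes and the 121 listed genes, the fixed block changed no call at the adjusted threshold. Pdgfb was under an unadjusted p of 0.05 in limma with that block and not without it. Genes that differed between numbers were 1345 in all, 2894 after the filter at 6, and 166, 984, 1019 and 819 without numbers 1, 2, 3 and 4, with 1 to 3 of the 8 growth factor genes among the last. The cause of these shifts was not tested. Near-background genes such as Lif have compressed ratios.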
